A study of Mus musculus with 16 samples.

Results

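Solute carriers are the membrane proteins that move amino acids, sugars, ions, metals, nucleosides and vitamins across the plasma membrane and the membranes of organelles, and their genes carry the symbol prefix Slc. The genes described here were chosen by symbol and by mean signal. They were those with a probe set of a single symbol starting with Slc and a digit on either chip of a mouse array pair, leaving out Slc2a1 and Slc7a11, and with a mean of at least 200 in at least 1 of 4 conditions. Of 274 such genes on the chips 272 remained after the 2 were left out, and 150 of these reached the signal threshold, among 13674 genes named on the chips. Each gene was read from 1 probe set, taken from chip A where it had one there and otherwise from chip B, and with the highest mean signal among several, which gave 74 genes on chip A and 76 on chip B. On any of their probe sets 160 of the 272 genes reached 200. A gene given below as under 200 was so on its chosen probe set. The threshold chose the genes by signal, so being bright (a mean of 200 or more) is no result. A gene bright in only some conditions had to differ between conditions. Of the 150 genes, 109 reached 200 in all 4 conditions, 14 in 3, 10 in 2 and 17 in 1. The symbol rule also takes in some proteins that are no transporters, such as the scaffold proteins Slc9a3r1 and Slc9a3r2 (NHERF1 and NHERF2). The substrate classes used below follow the number in the symbol, so their counts take in such proteins too.

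The cells were endothelial lines from mouse embryonic stem cells, and every sample is labelled as homozygous for a null VE-cadherin gene. VE-cadherin (VEC) is the cadherin of endothelial junctions. Cells were VEC-null or VEC-positive and sparse or confluent, and all were starved for 36 h in medium with albumin and without serum. The sources used here do not say how the VEC-positive cells gained VEC. Each condition was 1 cRNA sample, made from 15 µg of total RNA and hybridised to 2 copies of each chip, 16 arrays in all. The 2 copies are technical. P values therefore measure the spread between hybridisations of a cRNA sample, not between cultures, and each difference below is between single cRNA samples.

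Endothelium takes up amino acids and nutrients for itself and passes them between blood and tissue. The heavy chain Slc3a2 (CD98) carries light chains such as Slc7a5 (LAT1) and Slc7a7 (y+LAT1) to the plasma membrane, where they exchange amino acids. Slc39 carriers (ZIP) bring zinc into the cytosol, Slc30 carriers (ZnT) take it out, and Slc40a1 (ferroportin) is the exporter of iron. Slc25 carriers serve the inner membrane of mitochondria, and the Slc35 family holds the carriers that bring nucleotide sugars into the secretory pathway.

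The promoters of 4 of the genes that carry the results below are shown because the light chain Slc7a7, the amino acid carrier Slc43a2 and the heavy chain Slc3a2 differed with density, and the endosomal sodium/proton exchanger Slc9a9 between the lines. Each is the 250 bases before the RefSeq start in GRCm38.p6, written 5′ to 3′ on the gene's strand, with motif matches in capitals. Slc7a7 lies at chr14:54417945-54418194 (minus strand), Slc43a2 at chr11:75531444-75531693 (plus), Slc3a2 at chr19:8713898-8714147 (minus) and Slc9a9 at chr9:94669642-94669891 (plus). The table holds 5 starts of Slc7a7 and 2 of Slc43a2, and the most upstream of each is shown.
Slc7a7: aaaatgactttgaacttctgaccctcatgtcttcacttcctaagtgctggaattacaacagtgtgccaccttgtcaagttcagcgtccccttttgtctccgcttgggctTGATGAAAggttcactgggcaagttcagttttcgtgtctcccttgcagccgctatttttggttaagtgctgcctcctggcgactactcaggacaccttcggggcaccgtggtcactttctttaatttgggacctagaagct
Slc43a2: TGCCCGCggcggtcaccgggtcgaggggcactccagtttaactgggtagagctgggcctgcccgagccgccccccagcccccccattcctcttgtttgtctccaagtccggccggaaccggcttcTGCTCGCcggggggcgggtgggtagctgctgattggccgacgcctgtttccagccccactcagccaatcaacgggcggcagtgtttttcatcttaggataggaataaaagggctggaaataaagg
Slc3a2: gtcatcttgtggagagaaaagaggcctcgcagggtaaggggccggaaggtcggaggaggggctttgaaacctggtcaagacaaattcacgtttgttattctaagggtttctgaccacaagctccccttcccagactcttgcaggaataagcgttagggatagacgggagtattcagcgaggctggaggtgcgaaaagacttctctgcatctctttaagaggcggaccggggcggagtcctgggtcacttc
Slc9a9: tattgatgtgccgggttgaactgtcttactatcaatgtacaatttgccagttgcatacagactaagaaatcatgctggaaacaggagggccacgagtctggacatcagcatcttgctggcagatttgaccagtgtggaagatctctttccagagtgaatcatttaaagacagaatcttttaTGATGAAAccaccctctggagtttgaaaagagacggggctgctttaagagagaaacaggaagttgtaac

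The motifs searched on both strands were the amino acid response element (TGATGNAA), the antioxidant response element (TGACNNNGC), the metal response element (TGCNCNC), the sterol response element (TCACNCCAC) and the E-box (CACGTG). The capitals mark an amino acid response match 141 bases before the start of Slc7a7 and 69 before that of Slc9a9. A further window of Slc7a7, not shown, held another, 243 bases before its own start. In Slc43a2 they mark matches of the metal pattern (TGCCCGC and TGCTCGC) at 250 and 125 bases, and the Slc3a2 window held no match. The metal pattern searched was a loose one. It takes any base where the stricter form TGCRCNC has A or G, and the Slc43a2 matches have C and T there. The metal shares below are those of the loose pattern. Of the 150 genes, 120 had a promoter entry. Of these 120, 5 (4.17%) held the amino acid response element, 24 (20%) the antioxidant, 71 (59.2%) the metal and 4 (3.33%) the sterol response element, and 19 (15.8%) the E-box. Over all 27025 genes with an entry the shares were 3.91%, 11.5%, 47.2%, 1.22% and 6.86%. A gene counted if any of its windows held a match, and the 120 had 164 windows beside 32851 for the 27025. The 27025 were not chosen by signal. The differences between the shares were not tested. Each motif was counted on its own, also where its match overlaps that of another motif, and a match is a run of letters, not a binding site.

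All 11 endothelial markers checked passed the signal filter. Their summed signal was 12893 and 12983 on the copies of sparse and 47859 and 48230 on those of confluent VEC-null cells, and 20788 and 23785 on sparse and 46977 and 48168 on confluent VEC-positive cells. In each line 7 of the 11 rose with density, and Vwf and Cldn5 were bright only in confluent VEC-positive cells. Pecam1 stayed under 200 in every condition (means of 118 to 181), with 51.1 and 286.8 on the copies of confluent VEC-null cells. The blood markers Ptprc and Itgam had condition means of 9.10 to 23.6. The blood markers Csf1r and Cd68 were brighter. Csf1r had condition means of 232.2 to 351.05 and passed in no comparison. Cd68 had condition means of 273.25 to 910, rose with density in VEC-null cells and was lower in VEC-positive cells when confluent (-1.5). Of 5 smooth muscle and fibroblast markers, 4 were tested, and the summed signal of the 5 lay between 726 and 920 on every array copy. With density in VEC-null cells Pdgfrb rose by 2.58 while Acta2 and Tagln changed by -1.29 and -1.13. In VEC-positive cells Acta2 changed by -1.72 with density. Between the lines Acta2 was lower (-1.64 and -1.20) and Dcn higher (1.18 and 1.75) in VEC-positive cells when confluent and sparse, and Pdgfrb was lower (-2.65) when confluent. Of the epithelial markers Krt19 read 861.8 and 947.6 on the sparse VEC-positive copies and 3.3 to 7.0 on the other arrays. It was 4.15 higher in VEC-positive cells when sparse, changed by -4.1 with density in that line, and its density responses differed by -4.12. Cdh1 had condition means of 305 to 407 and passed in no comparison, and Epcam, Krt8 and Krt18 stayed under 200 in every condition. Of the embryonic stem markers Fgf4 had means of 211 to 288.5 and passed in none, and Pou5f1, Nanog, Sox2 and Zfp42 stayed under 200. The part of these marker differences in the results below was not tested. In these bulk samples fewer cells of a type and less RNA per cell cannot be told apart. Copies of a condition correlated at 0.951 to 0.989 over all probe sets of a chip, and the actin 3′/5′ signal ratio was 1.11 to 1.33. The Gapdh ratio was 1.23 and 1.14 on the chip B copies of confluent VEC-positive cells and 0.903 to 1.01 on the other arrays. The Gapdh and actin 3′ signals were lowest in confluent VEC-positive cells on both chips, with 29270.3 and 28590.4 for Gapdh on chip B against 36572 to 55583 on the other chip B arrays. The part of this in the genes that were highest or lowest in that sample was not tested. The VE-cadherin probe set itself (Cdh5) differed by -0.02 between the lines when confluent and by 0.13 when sparse on the log2 scale, and whether it lies outside the deleted part is not given, so it does not check the labels.

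Of the 150 genes, 142 passed the filter on dim probe sets and were tested. A gene passed the test at an adjusted p below 0.05 (limma, adjusted over all 14246 probe sets) and a size of change of 1 or more in log2(signal + 50), the scale of every log2 change below, each with its standard error (SE). Between the lines when confluent, 14 of the 142 differed, 11 higher and 3 lower in VEC-positive cells, a share of 9.86% beside 7.93% of all probe sets (4.31% higher and 3.62% lower). When sparse, 17 differed, 13 higher and 4 lower (12%, beside 9.7%, of which 5.43% higher and 4.27% lower). With density, 24 differed in VEC-null cells, 13 higher and 11 lower in confluent cells (16.9%, beside 16.5%, of which 9.1% higher and 7.41% lower). In VEC-positive cells 31 differed, 18 higher and 13 lower (21.8%, beside 15.4%, of which 8.16% higher and 7.22% lower). The density responses of the lines differed for 20 genes, 13 with a positive and 7 with a negative difference (14.1%, beside 12.2%, of which 5.91% positive and 6.34% negative). The median change of the members lay between -0.05 and 0.05 in every comparison, and that of all probe sets between -0.03 and 0.02. Each share of the members was near or somewhat above that of all probe sets, most so with density in VEC-positive cells, and this excess was not tested. Of the 142 genes, 92 passed in none of the 4 pairwise comparisons.

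For a gene bright in only some conditions a test repeats in part what chose the gene, and its p is a description. Of the genes given with a p below, this holds for Slc14a1, Slc24a3, Slc25a33 and Slc37a1, bright in 2 conditions, and for Slc6a8, Slc7a7, Slc27a1 and Slc43a2, bright in 3. The 109 genes at 200 or more in every condition were not chosen through a single condition. Of these, 4 (3.67%) differed between the lines when confluent and 7 (6.42%) when sparse, beside 7.93% and 9.7% of all probe sets. With density 14 (12.8%) differed in VEC-null and 18 (16.5%) in VEC-positive cells, beside 16.5% and 15.4%. The density responses differed for 10.1%, beside 12.2%. Only with density in VEC-positive cells was the share of the 109 above that of all probe sets. The 109 leave out genes that went dim in a condition, while any probe set needed only 1 group mean above the filter. This choice can lower the shares of the 109, so they cannot be weighed against those of all probe sets. Of the 33 tested genes bright in 1 to 3 conditions the shares were 30.3%, 30.3%, 30.3% and 39.4%, and 27.3% for the density responses. These genes were chosen in a way that requires a difference. The density comparisons share no array, and 15 genes differed in both, 10 higher and 5 lower, which is 15 of 24 in VEC-null and 15 of 31 in VEC-positive cells. The comparisons between the lines share none either, and 6 genes differed at both densities, 5 higher and 1 lower, 6 of 14 and 6 of 17. The overlaps over all probe sets are not given here, so these counts show no trait particular to the carriers. A density comparison and a comparison between the lines that meet in a condition share its arrays. Over the 142 genes the density changes of the lines correlated at r = 0.66, beside 0.614 over all probe sets, and the line changes at the densities at r = 0.441, beside 0.357. These correlations are across genes of the same cRNA samples and are given as a description.

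**Figure D1:**
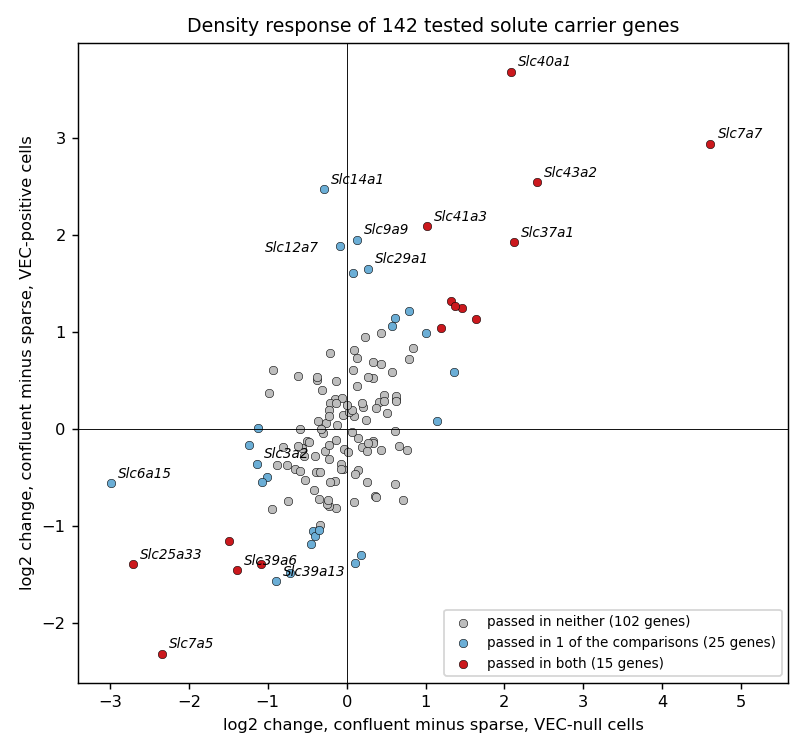
Log2 change from sparse to confluent in VEC-null cells (x axis) against that in VEC-positive cells (y axis) for 142 tested solute carrier genes, 1 point a gene. The 15 red genes passed the test in both lines and lie in the same direction in each, with Slc7a7, Slc43a2 and Slc40a1 at the upper right and Slc7a5 and Slc25a33 at the lower left.

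**Figure D2:**
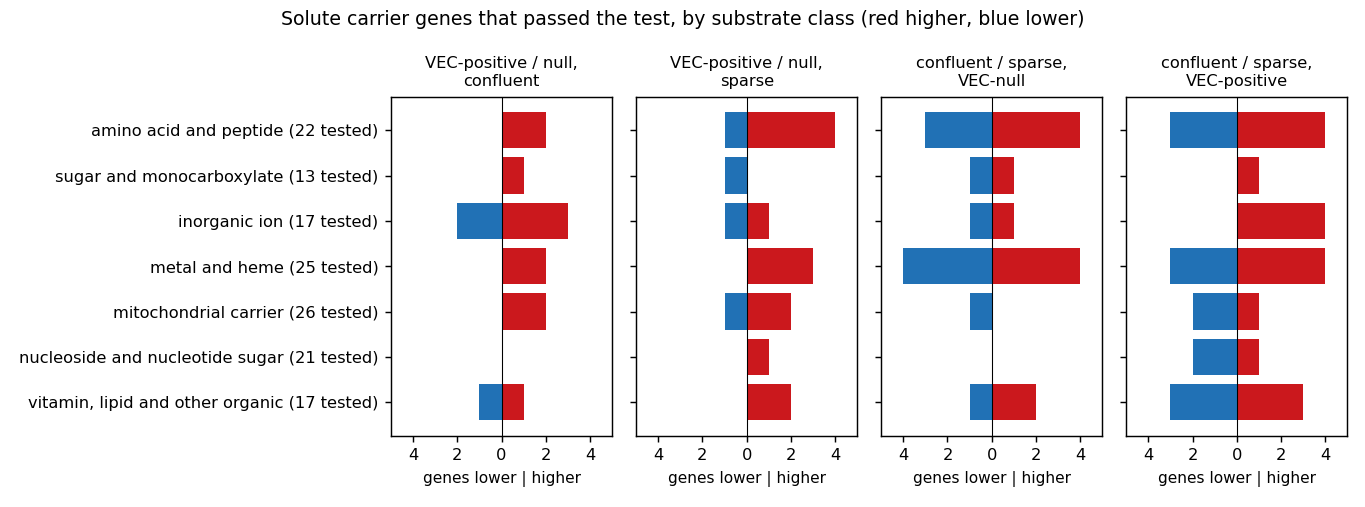
Number of genes that passed the test in each pairwise comparison by substrate class, higher to the right and lower to the left, with the genes tested beside each class. On the chosen probe sets the nucleoside and nucleotide sugar carriers had 0 calls between the lines when confluent and 0 with density in VEC-null cells. The metal and heme carriers had 4 in each direction with density in VEC-null cells. Of all probe sets, 7.93% passed between the confluent lines and 16.5% with density in VEC-null cells.

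Among the amino acid and peptide carriers, 22 genes were tested. With density 4 rose and 3 fell in each line, and between the lines 2 rose when confluent and 4 rose and 1 fell when sparse. The system L light chain Slc7a5, which takes up large neutral amino acids, was high in both sparse samples. Slc7a5 read 4439 and 4384.5 on the copies of sparse and 765 and 902 on those of confluent VEC-null cells, and 4157 and 4522 on sparse and 850.4 and 809 on confluent VEC-positive cells. Sparse and confluent copies did not overlap in either line, and it fell with density, with changes of -2.34 (SE 0.10, adjusted p 9.68e-08) in VEC-null and -2.32 (SE 0.10, adjusted p 1.13e-07) in VEC-positive cells. Its difference between the lines was -0.02 when sparse and no larger when confluent. Slc3a2 read 6816 and 7801 on the copies of sparse and 2994 and 3581.5 on those of confluent VEC-null cells, and 4569.8 and 4936 on sparse and 3611 and 3791.5 on confluent VEC-positive cells. This heavy chain fell with density in VEC-null cells, with a change of -1.14 (SE 0.10, adjusted p 1.44e-05), while its change of -0.36 in VEC-positive cells did not pass.

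The light chain Slc7a7, which exchanges cationic for neutral amino acids, went the other way. Slc7a7 read 31.1 and 145 on the copies of sparse and 2974 and 3057 on those of confluent VEC-null cells, and 198 and 209.6 on sparse and 1948 and 1835 on confluent VEC-positive cells. All confluent copies lay far above all sparse copies. It rose with density by 4.61 (SE 0.31, adjusted p 1.65e-06) in VEC-null and by 2.94 (SE 0.31, adjusted p 3.87e-05) in VEC-positive cells. The density responses differed by -1.67 (SE 0.43, adjusted p 0.0173), which ranged over -2.30 to -1.04 without 1 array and did not pass without the second copy of confluent VEC-positive cells. The sparse VEC-null copies disagreed, and the difference between the sparse lines of 1.01 ranged over 0.38 to 1.64 and was lost without the first sparse VEC-null copy or either sparse VEC-positive copy. Less the median of chromosome 14, which was 0.25 higher in sparse VEC-positive cells, it was 0.76. Of the other chain genes on the chips, Slc3a1, Slc7a6, Slc7a8, Slc7a9 and Slc7a10 stayed under 200 in every condition on their chosen probe sets.

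Slc43a2 (LAT4), a uniporter of neutral amino acids, was higher with density and in VEC-positive cells. Slc43a2 read 125 and 114 on the copies of sparse and 847 and 851 on those of confluent VEC-null cells, and 333 and 331 on sparse and 1919 and 2461 on confluent VEC-positive cells. The copies of the 4 conditions did not overlap. It rose with density by 2.41 (SE 0.16, adjusted p 2.14e-06) and 2.54 (SE 0.16, adjusted p 1.62e-06) in VEC-null and VEC-positive cells, and was higher in VEC-positive cells by 1.31 when confluent and 1.17 when sparse. Other probe sets of the gene did not give this pattern throughout. A second probe set changed by -0.49 and 1.73 with density in the respective lines and by 1.55 and -0.67 between the lines when confluent and sparse, and a further one by 0.28, 0.58, 0.69 and 0.39. Slc38a6, of the family of sodium-coupled neutral amino acid carriers, rose with density by 1.64 and 1.13 in the respective lines, from 611 and 613 to 1966 and 2060.5 in VEC-null cells. Slc36a1, the lysosomal proton-coupled amino acid carrier, rose by 1.15 in VEC-null cells (0.98 to 1.32 without 1 array, and lost without the first sparse VEC-null copy), and Slc36a4 of the same family by 1.06 in VEC-positive cells (0.89 to 1.23, lost without the first sparse or the first confluent copy of that line).

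Slc6a15, a sodium-coupled carrier of branched-chain amino acids, was bright in the sparse VEC-null sample alone and had to differ. Slc6a15 read 1234 and 1177 on the copies of sparse and 125 and 92.9 on those of confluent VEC-null cells, and 83.9 and 79.4 on sparse and 24.5 and 57.5 on confluent VEC-positive cells. Its differences were -2.99 with density in VEC-null cells, -3.25 between the sparse lines and 2.43 for the density responses. Slc6a6, the taurine transporter, was highest in sparse VEC-positive cells. Slc6a6 read 958 and 965 on the copies of sparse and 828 and 666 on those of confluent VEC-null cells, and 2373 and 2097 on sparse and 1051 and 1063 on confluent VEC-positive cells. It was 1.17 higher in VEC-positive cells when sparse, and its fall with density in that line, -1.04, was lost without the first sparse VEC-positive copy (-1.13 to -0.96). Another probe set of it changed by 0.33 and -0.45 in these comparisons. The creatine transporter Slc6a8 was lowest in sparse VEC-null cells. Slc6a8 read 136.5 and 173 on the copies of sparse and 343 and 258 on those of confluent VEC-null cells, and 446 and 586 on sparse and 392.5 and 478 on confluent VEC-positive cells. It was higher by 1.46 (SE 0.19, adjusted p 0.00024) in VEC-positive cells when sparse, and by 1.03 on its other tested probe set.

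Slc1a4 (ASCT1), a carrier of alanine, serine and cysteine, differed between the confluent lines by 1.17 (SE 0.23, adjusted p 0.00418), with 422 and 551 on confluent VEC-null and 1081 and 1221 on confluent VEC-positive copies. Those copies did not overlap, but the call was lost without the first confluent VEC-null copy (1.00 to 1.34). Its density responses differed by 1.54, with sparse VEC-null copies as far apart as 724 and 1287.5. The GABA transporter Slc6a11 was at 200 or more in sparse VEC-positive cells alone and changed by -1.11 with density there, a call lost without either sparse copy or the second confluent copy of that line (-1.40 to -0.81). Of the glutamine carriers Slc38a1 and Slc38a2 neither passed on its chosen probe set. With density Slc38a2 changed by -0.74 in VEC-null and -0.75 in VEC-positive cells, and 2 other probe sets of it gave -0.59 and -1.01, the last passing, and -0.08 and -0.22.

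**Figure D3:**
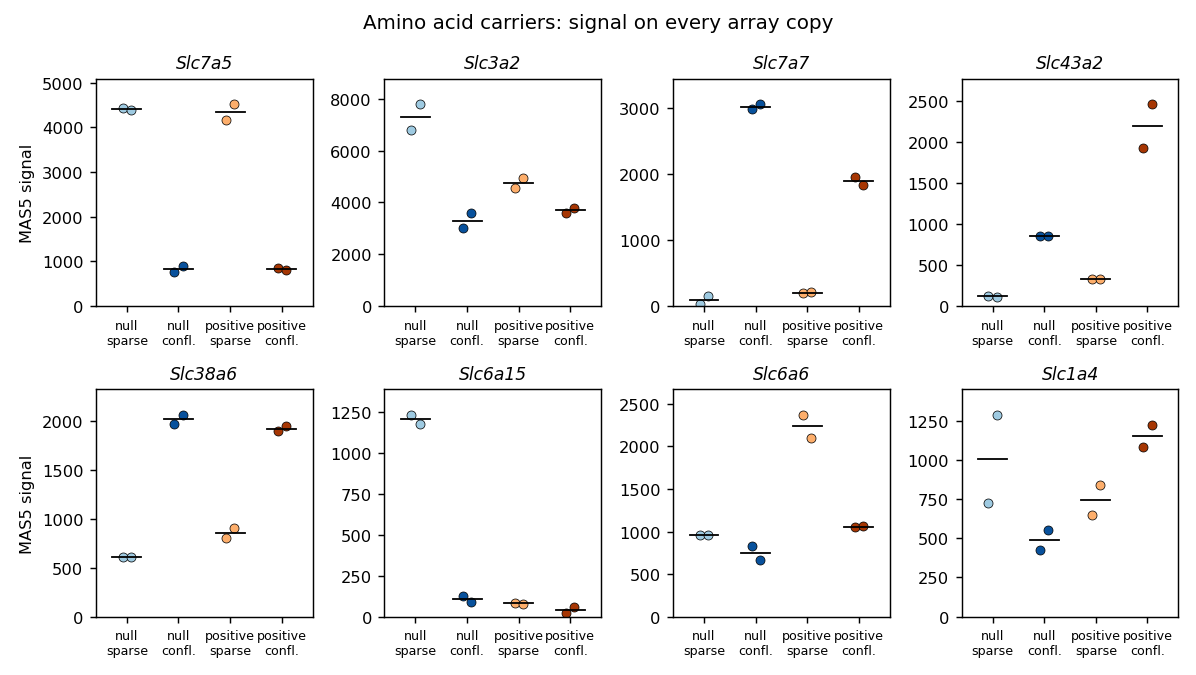
MAS5 signal (linear, from 0) of 8 amino acid carrier genes on every array copy, with the 4 conditions on the x axis, 1 point a copy and a line at the mean of the 2 copies. Slc7a5 sits between 4157 and 4522 in the sparse and between 765 and 902 in the confluent samples of both lines, and Slc7a7 between 31.1 and 209.6 in the sparse and between 1835 and 3057 in the confluent samples.

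The metal and heme carriers had 25 tested genes. With density 4 rose and 4 fell in VEC-null cells and 4 rose and 3 fell in VEC-positive cells, and between the lines 2 rose when confluent and 3 when sparse. The iron exporter Slc40a1 was bright in every condition and highest in confluent VEC-positive cells. Slc40a1 read 1222 and 1037 on the copies of sparse and 4825 and 5002 on those of confluent VEC-null cells, and 602 and 627 on sparse and 8441 and 8495 on confluent VEC-positive cells. The 4 pairs of copies did not overlap. It rose with density by 2.08 (SE 0.10, adjusted p 1.97e-07) in VEC-null and by 3.68 (SE 0.10, adjusted p 1.01e-08) in VEC-positive cells, and the responses differed by 1.60 (SE 0.14, adjusted p 6.57e-05). Its VEC-positive minus VEC-null differences were 0.78 when confluent and -0.82 when sparse, and neither reached a size of 1.

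Zinc importers moved in both directions with density. Slc39a10 rose by 1.20 in VEC-null and 1.04 in VEC-positive cells, the latter lost without the first sparse or the second confluent VEC-positive copy (0.92 to 1.17). A second probe set of Slc39a10 passed at 1.11 in VEC-null cells and gave 0.37 in VEC-positive cells without passing. Slc39a6 fell in both lines. Slc39a6 read 1188 and 1325 on the copies of sparse and 441 and 453 on those of confluent VEC-null cells, and 1521.5 and 1493 on sparse and 570.4 and 469 on confluent VEC-positive cells. Its changes were -1.39 and -1.46, and those of Slc39a14, which also carries iron, -1.08 and -1.40. The Slc39a14 call in VEC-null cells was lost without the second copy of either density (-1.38 to -0.78), and another probe set of it changed by 0.03 and -0.46. Slc39a13, an importer of intracellular vesicles, was highest in sparse VEC-positive cells. Slc39a13 read 1644 and 1519 on the copies of sparse and 900.1 and 758 on those of confluent VEC-null cells, and 3112 and 3684 on sparse and 1031 and 1193.5 on confluent VEC-positive cells. It fell with density in VEC-positive cells, with a change of -1.57 (SE 0.13, adjusted p 9.32e-06), changed by -0.90 in VEC-null cells, and was higher in VEC-positive cells by 1.08 when sparse, the last lost without the second sparse VEC-positive copy (0.96 to 1.20). Slc39a7, the importer of the endoplasmic reticulum, fell in VEC-null cells, with a change of -1.07, and changed by -0.55 in VEC-positive cells.

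Slc39a1 was 1.07 higher in VEC-positive cells when sparse (0.87 to 1.28 without 1 array, lost without the second sparse VEC-null or first sparse VEC-positive copy). Slc39a3 was higher by 1.01 when confluent and 1.03 when sparse (0.79 to 1.23 and 0.75 to 1.30). The first was lost without the first copy of either confluent line and the second without the second copy of either sparse line. Slc39a3 lies on chromosome 10, where the median of all tested genes was 0.45 and 0.38 higher in VEC-positive cells, and less that median its differences were 0.56 and 0.65. Of all the carriers that differed between the lines, 12 of 14 when confluent and 13 of 17 when sparse kept a size of 1 or more less the median of their chromosome. The like share over all probe sets is not given here. The zinc exporter Slc30a5 changed by -1.24 with density in VEC-null cells, by -0.17 in VEC-positive cells and by 1.07 between these responses (-0.53 in VEC-null cells and 0.46 for the difference on another probe set). Slc30a3 rose with density by 1.14 in VEC-positive cells, a call lost without their second confluent copy (1.00 to 1.28). Slc31a2, a relative of the copper importer, rose by 1.36 in VEC-null cells and changed by 0.58 in VEC-positive cells (1.75 and 1.08 on another probe set, both passing), and the density responses of the importer Slc31a1 differed by -1.18 (0.09 on another).

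Slc41a3, a magnesium carrier, was at 200 or more in confluent VEC-positive cells alone, with 558 and 480 there and 121 and 277.5 on the unlike copies of confluent VEC-null cells. Its differences were 1.02 and 2.09 with density in VEC-null and VEC-positive cells and 1.26 between the confluent lines. Without 1 array the first ranged over 0.55 to 1.49 and was lost without either sparse VEC-null copy, the second confluent VEC-null copy or the first confluent VEC-positive copy. The last ranged over 0.79 to 1.73 and was lost without the first confluent VEC-null copy or either confluent VEC-positive copy. Of the genes that handle metals with these carriers, the zinc-binding metallothioneins Mt1 and Mt2 differed between the lines by -1.33 and -1.06 when confluent and by -1.16 and -2.17 when sparse. With density they changed by -1.43 and -1.50 in VEC-null and by -1.60 and -0.39 in VEC-positive cells, the last not passing. The ferroxidase Cp changed by -2.09 and -2.30 from VEC-null to VEC-positive cells when confluent and sparse, and the copper pump Atp7a rose with density by 1.29 in VEC-null cells.

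**Figure D4:**
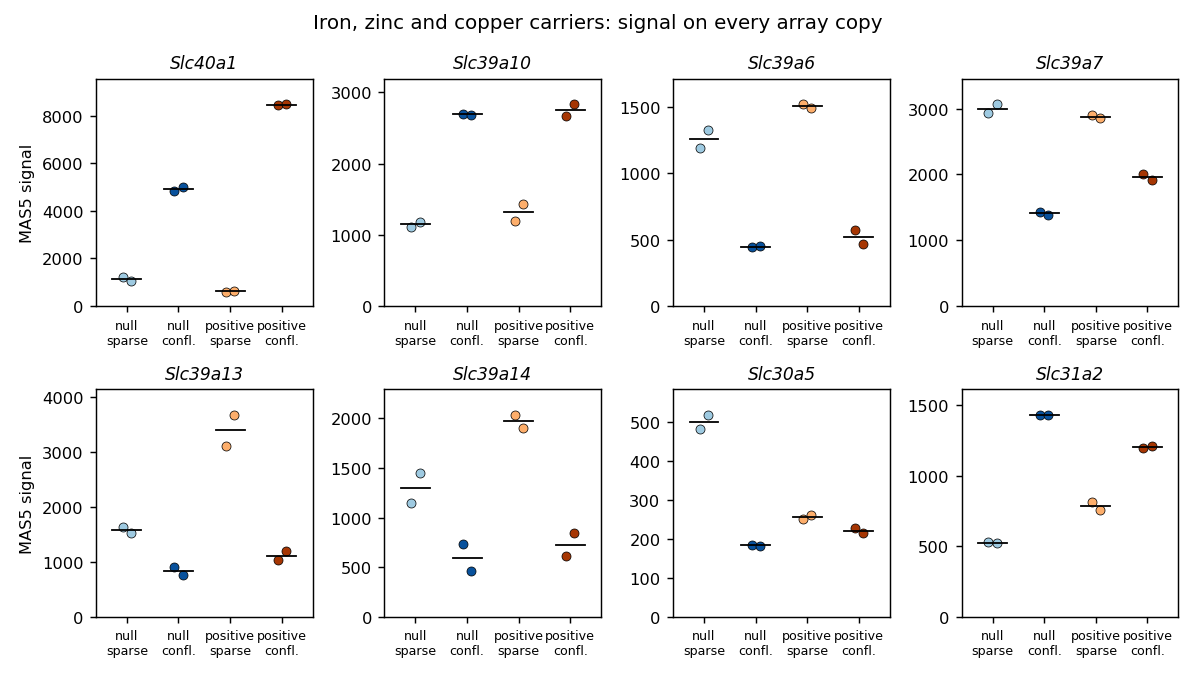
MAS5 signal (linear, from 0) of 8 iron, zinc and copper carrier genes on every array copy, with the 4 conditions on the x axis, 1 point a copy and a line at the mean of the 2 copies. Slc40a1 lies between 8441 and 8495 in confluent VEC-positive cells, above its 4825 and 5002 in confluent VEC-null cells, and Slc39a6 is between 441 and 570.4 in the confluent and between 1188 and 1522 in the sparse samples.

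The urea transporter Slc14a1 gave the largest difference between the confluent lines among the 142 genes. Slc14a1 read 102.5 and 124 on the copies of sparse and 99 and 69.1 on those of confluent VEC-null cells, and 382 and 285 on sparse and 2110.1 and 2005 on confluent VEC-positive cells. It was dim in VEC-null cells and reached 200 only in VEC-positive cells, where confluent copies were far above sparse ones. It was higher in VEC-positive cells by 3.98 (SE 0.22, adjusted p 2.46e-06) when confluent and by 1.22 (SE 0.22, adjusted p 0.00188) when sparse, rose with density in that line by 2.47 (SE 0.22, adjusted p 1.47e-05), and its density responses differed by 2.76 (SE 0.31, adjusted p 0.000262). Its second tested probe set gave 3.35, 0.73, 2.51 and 2.62 in the same order, of which the value when sparse did not pass. Slc14a1 counts here among the carriers of vitamins, lipids and other organic solutes.

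The inorganic ion class had 17 tested genes, the scaffolds Slc9a3r1 and Slc9a3r2 among them. Of these 17, 3 were higher and 2 lower in VEC-positive cells when confluent, with Slc9a3r1 among the lower. When sparse, 1 was higher and 1 lower. With density 1 rose (Slc9a3r2) and 1 fell in VEC-null cells, and 4 rose in VEC-positive cells, Slc9a3r2 among them. Slc9a9, the endosomal exchanger, was at 200 or more in confluent VEC-positive cells alone and had to differ. Slc9a9 read 30.6 and 11.1 on the copies of sparse and 32.9 and 21.3 on those of confluent VEC-null cells, and 137 and 86.3 on sparse and 561.5 and 573 on confluent VEC-positive cells. Its differences were 3.01 between the confluent and 1.19 between the sparse lines and 1.95 with density in VEC-positive cells, and without 1 array the value for the sparse lines ranged over 0.96 to 1.41. That call was lost without the second sparse VEC-null or the first sparse VEC-positive copy. The anion exchanger Slc26a6 was likewise bright in confluent VEC-positive cells alone (411 and 440, and 69.6 to 114 on every other array). The potassium-chloride cotransporter Slc12a7 was bright in all conditions. Slc12a7 read 457 and 428 on the copies of sparse and 443.5 and 392 on those of confluent VEC-null cells, and 251 and 269 on sparse and 1055 and 1135 on confluent VEC-positive cells. Both confluent VEC-positive copies lay above all other copies, and the sparse VEC-positive copies below all others.

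Slc12a7 rose with density by 1.88 (SE 0.12, adjusted p 1.32e-06) in VEC-positive cells against -0.08 in VEC-null cells, and the responses differed by 1.96 (SE 0.17, adjusted p 6.53e-05). It was higher in VEC-positive cells by 1.29 (SE 0.12, adjusted p 4.82e-05) when confluent. A second probe set gave 1.41, 1.07 and 0.38 for the response in VEC-positive cells, the difference of responses and the confluent lines, the last not passing. Slc24a3, which exchanges sodium for calcium and potassium, was high in VEC-null cells at both densities. Slc24a3 read 461 and 557 on the copies of sparse and 505 and 454 on those of confluent VEC-null cells, and 120.1 and 124 on sparse and 72.8 and 95.5 on confluent VEC-positive cells. VEC-null and VEC-positive copies did not overlap, and it was lower in VEC-positive cells, at -1.98 (SE 0.23, adjusted p 0.000174) when confluent and -1.70 (SE 0.23, adjusted p 0.000332) when sparse. The sodium-potassium-chloride cotransporter Slc12a2 changed by -0.54, -0.18, -0.05 and -0.42 and did not pass. The phosphate carrier Slc20a2 fell with density in VEC-null cells, with a change of -1.01, a call lost without their second confluent copy (-1.14 to -0.89).

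The scaffolds of the sodium/proton exchangers did not change in the same comparisons. Slc9a3r1 read 673 and 537 on the copies of sparse and 638 and 837 on those of confluent VEC-null cells, and 521 and 382 on sparse and 256 and 327 on confluent VEC-positive cells. When confluent, Slc9a3r1 was lower in the VEC-positive line, at -1.20 (SE 0.19, adjusted p 0.00111), with no overlap of copies. Slc9a3r2 rose with density by 1.38 in VEC-null and 1.27 in VEC-positive cells. Of the 21 pump and partner genes that are no members, 14 were tested, and 1 rose and 3 fell in VEC-positive cells when confluent and 3 and 3 when sparse. With density 1 rose and 2 fell in VEC-null, and 1 rose and 1 fell in VEC-positive cells. The water channel Aqp1 was 1.81 higher in VEC-positive cells when confluent and rose by 1.77 with density in that line, and its density responses differed by 1.57. Those of Mt2 differed by 1.11. When sparse, Bsg, the chaperone of monocarboxylate carriers, was 1.04 higher in VEC-positive cells, and the kinases Wnk1 and Stk39, which act on cation-chloride cotransporters, were 1.08 and 1.43 higher. The genes Tfrc, Sgk1, Atp1b3, Fxyd5, Mtf1 and Oxsr1 passed in none of the comparisons, and Atp1b1, Atp1b2, Fxyd1, Fxyd6, Emb, Mpc1 and Pdzk1 were too dim to be tested.

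**Figure D5:**
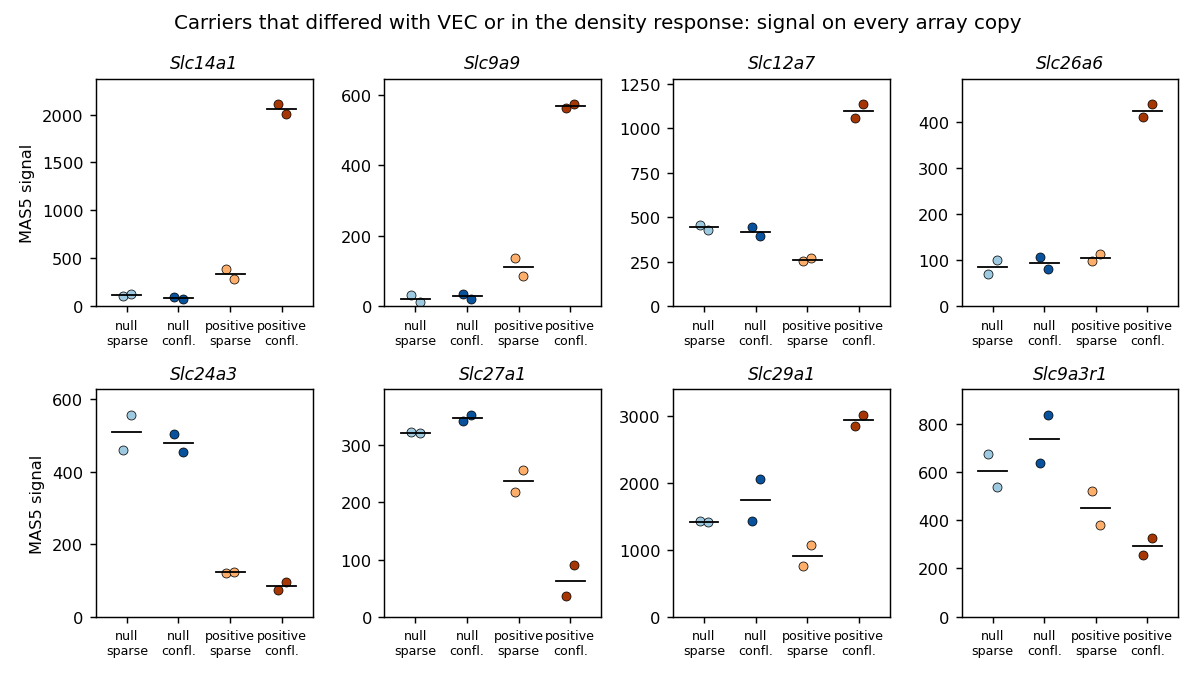
MAS5 signal (linear, from 0) of 8 genes that differed between the lines or in their density response, on every array copy, with the 4 conditions on the x axis, 1 point a copy and a line at the mean of the 2 copies. Slc14a1, Slc9a9, Slc12a7, Slc26a6 and Slc29a1 are highest in confluent VEC-positive cells, and Slc24a3 lies between 454 and 557 in VEC-null and between 72.8 and 124 in VEC-positive cells.

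Of 26 tested mitochondrial carriers, 2 were higher in VEC-positive cells when confluent and 2 higher and 1 lower when sparse. With density 1 fell in VEC-null cells, and 1 rose and 2 fell in VEC-positive cells. Slc25a42, the carrier of coenzyme A, was higher in VEC-positive cells at both densities. Slc25a42 read 265 and 1050 on the copies of sparse and 817 and 1143 on those of confluent VEC-null cells, and 1952.5 and 2259 on sparse and 3198 and 3788 on confluent VEC-positive cells. The copies of the lines did not overlap at either density, but those of sparse VEC-null cells were far apart. The differences were 1.80 (SE 0.44, adjusted p 0.0118) when confluent and 1.87 (SE 0.44, adjusted p 0.00806) when sparse. Without 1 array the first ranged over 1.57 to 2.03 and was lost without the first confluent VEC-null or the second confluent VEC-positive copy. The second ranged over 0.97 to 2.77 and was lost without the first sparse VEC-null or the second sparse VEC-positive copy.

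Slc25a33, a carrier of pyrimidine nucleotides, was high in sparse cells. Slc25a33 read 1199.5 and 1204 on the copies of sparse and 105 and 187 on those of confluent VEC-null cells, and 660.5 and 329 on sparse and 135 and 160.2 on confluent VEC-positive cells. Sparse and confluent copies did not overlap in either line, and it changed with density by -2.71 (SE 0.31, adjusted p 6.71e-05) in VEC-null and -1.40 (SE 0.31, adjusted p 0.00456) in VEC-positive cells. The call in VEC-positive cells was lost without their first sparse copy (-1.85 to -0.94), and that between the sparse lines of -1.27 without either sparse VEC-null copy or the second sparse VEC-positive copy (-1.72 to -0.82). Slc25a37 (mitoferrin), which brings iron into mitochondria, was 1.14 higher in VEC-positive cells when sparse (0.89 less the median of chromosome 14) and changed by -1.06 with density there, and a second probe set gave 0.13 and -1.18. The dicarboxylate carrier Slc25a10 rose by 1.21 with density in VEC-positive cells. Slc25a16 was 1.10 higher in VEC-positive cells when confluent, a call lost without the second confluent VEC-null or the first confluent VEC-positive copy (0.87 to 1.33), and 0.65 less the median of chromosome 10. The ADP/ATP carriers Slc25a4 and Slc25a5 passed in no comparison on the probe sets chosen here. A second probe set of Slc25a4, with a mean signal of 4110.3, passed at 1.15 between the sparse lines and at -1.77 with density in VEC-positive cells, where the chosen one gave 0.89 and -0.80.

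Of 13 tested carriers of sugars and monocarboxylates, 1 was higher in VEC-positive cells when confluent and 1 lower when sparse, and with density 1 rose and 1 fell in VEC-null and 1 rose in VEC-positive cells. Slc37a1, which exchanges sugar phosphate for phosphate at the endoplasmic reticulum, rose in both lines. Slc37a1 read 48.5 and 39.4 on the copies of sparse and 377 and 339 on those of confluent VEC-null cells, and 30.9 and 37.6 on sparse and 265 and 273 on confluent VEC-positive cells. Confluent and sparse copies did not overlap, and the changes were 2.12 (SE 0.27, adjusted p 0.000149) and 1.92 (SE 0.27, adjusted p 0.000314). The monocarboxylate carrier Slc16a1 (MCT1) was at 200 or more in sparse VEC-null cells alone. Slc16a1 read 223 and 231 on the copies of sparse and 78.6 and 75.9 on those of confluent VEC-null cells, and 44.1 and 50.8 on sparse and 49.7 and 46.1 on confluent VEC-positive cells. Its differences were -1.51 between the sparse lines and -1.12 with density in VEC-null cells. Slc45a3 was 1.63 higher in VEC-positive cells when confluent, where the VEC-null copies read 53.8 and 191, and the call was lost without the first confluent VEC-positive copy (1.03 to 2.24). The lactate exporter Slc16a3 passed in no comparison.

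Of 21 tested carriers of nucleosides and nucleotide sugars, 1 rose in VEC-positive cells when sparse, and with density 1 rose and 2 fell in VEC-positive cells. The class takes every Slc35 gene by its number. The Slc35 genes that passed in a pairwise comparison, Slc35e3, Slc35e4 and Slc35g1, are not thereby shown to carry nucleotide sugars. On the chosen probe sets 0 passed between the confluent lines and 0 with density in VEC-null cells by the limma test, beside 7.93% and 16.5% of all probe sets. In these comparisons 6 and 8 of the 21 had an unadjusted limma p below 0.05. The share of all probe sets at that p is not given here. Slc29a1 (ENT1), the equilibrative nucleoside transporter, rose with density by 1.65 (SE 0.18, adjusted p 5.18e-05) in VEC-positive cells, against 0.27 in VEC-null cells. Slc29a1 read 1432 and 1415 on the copies of sparse and 1438 and 2069.7 on those of confluent VEC-null cells, and 757.5 and 1075 on sparse and 2861 and 3027 on confluent VEC-positive cells. The confluent VEC-positive copies lay above all others, and the responses differed by 1.38 (SE 0.25, adjusted p 0.00332). Slc35e4 was highest in sparse VEC-positive cells. Slc35e4 read 844 and 951 on the copies of sparse and 514 and 532 on those of confluent VEC-null cells, and 1491 and 1585.5 on sparse and 503.5 and 523 on confluent VEC-positive cells. It changed by -1.49 (SE 0.11, adjusted p 2.74e-06) with density in that line. Slc35g1 changed by -1.19 there, a call lost without either sparse copy or the first confluent copy of the line (-1.71 to -0.68). Slc35e3 was 1.05 higher in VEC-positive cells when sparse (0.72 to 1.38, lost without the second copy of either sparse line), and 0.67 less the median of chromosome 10. A second probe set of Slc35e3 gave 0.93 there without passing and passed at 1.57 between the confluent lines, where the chosen one gave 0.89.

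The last class, carriers of vitamins, lipids and other organic solutes, had 17 tested genes, of which 1 was higher and 1 lower in VEC-positive cells when confluent and 2 were higher when sparse. With density 2 rose and 1 fell in VEC-null, and 3 rose and 3 fell in VEC-positive cells. Slc27a1 (FATP1), a fatty acid transporter, was lowest in confluent VEC-positive cells. Slc27a1 read 322 and 321 on the copies of sparse and 341 and 353 on those of confluent VEC-null cells, and 219 and 256.5 on sparse and 35.6 and 89.7 on confluent VEC-positive cells. Those copies lay below all others, and Slc27a1 differed there by -1.86 (SE 0.22, adjusted p 0.000178) against confluent VEC-null cells, changed with density by -1.39 in VEC-positive cells, and its responses differed by -1.49 (SE 0.30, adjusted p 0.00561). A second probe set of the gene gave -0.49, -0.53 and -0.41, none of which passed. The reduced folate carrier Slc19a1 fell with density, with changes of -1.49 in VEC-null and -1.16 in VEC-positive cells, the latter lost without the first sparse copy (-1.34 to -0.98), and a second probe set changed by -0.28 and -0.21.

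The choline transporter-like Slc44a2 rose with density by 1.46 and 1.24 in the respective lines, and Slc22a17, a receptor of lipocalin, at 200 or more in 1 condition only, by 1.32 and 1.32. The organic anion carrier Slc17a3 was highest in sparse VEC-positive cells. Slc17a3 read 322 and 469.6 on the copies of sparse and 368 and 546 on those of confluent VEC-null cells, and 945 and 809.6 on sparse and 378 and 280.5 on confluent VEC-positive cells. It was 1.07 higher in VEC-positive cells when sparse, a call lost without the first copy of either sparse line (0.83 to 1.31), changed with density by -1.30 in VEC-positive cells, and its responses differed by -1.48 (SE 0.34, adjusted p 0.0103). Slc66a2, which is in no class, rose with density by 1.01 in VEC-null cells, a call lost without the first sparse or the second confluent copy (0.95 to 1.07).

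A list of carriers known from endothelium and tissue barriers had 16 genes on the chips, of which 11 were tested. It holds Slco2a1, the prostaglandin transporter, which is no member, and Slc2a1 is not among them. When confluent 2 were higher in VEC-positive cells (Slc1a4, and Slco2a1 by 1.12), and when sparse 2 were higher (Slc6a6, and Slco2a1 by 1.39) and 1 lower (Slc16a1). With density 1 rose and 4 fell in VEC-null cells, and 2 rose and 3 fell in VEC-positive cells. The rise of Slc40a1 and the falls of Slc7a5 and Slc19a1 were in both lines, Slc3a2 and Slc16a1 fell in VEC-null cells, and in VEC-positive cells Slc6a6 fell and Slc29a1 rose. The density responses differed for 4, Slc1a4, Slc16a1, Slc29a1 and Slc40a1. Slc12a2 and Slc38a5 passed in none of the comparisons. On their chosen probe sets Slc7a1, Slc1a5, Slc38a3, Slc22a8 and Slco1a4 stayed under 200 in every condition.

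The copies are technical, so in a further fit each of the 4 cRNA samples counted once, and VEC and density were its only terms. It called 4 of the 142 genes between the lines, Slc14a1 (2.60), Slc25a42 (1.83), Slc43a2 (1.24) and Slc24a3 (-1.84), beside 2.04% of all probe sets. It called 15 with density, beside 9.83%. Those that rose were Slc7a7 (3.77), Slc40a1 (2.88), Slc43a2 (2.47), Slc37a1 (2.02), Slc41a3 (1.55), Slc38a6 (1.39), Slc44a2 (1.35), Slc9a3r2 (1.33) and Slc39a10 (1.12). Those that fell were Slc7a5 (-2.33), Slc25a33 (-2.05), Slc39a6 (-1.43), Slc19a1 (-1.33), Slc39a14 (-1.24) and Slc39a13 (-1.23). It holds the effects of VEC and density to be additive, so its error comes from departures from that, not from a spread between cultures. By the main test the density responses differed for Slc14a1 (2.76), Slc40a1 (1.60), Slc25a33 (1.31) and Slc7a7 (-1.67). The values of these genes in this fit therefore average unlike changes.

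Of the 150 genes, 55 had more than 1 probe set. Where a gene passed and another of its probe sets was tested, the other had the same sign in 30 of 34 cases, passed in the same direction in 11 and in the opposite one in 0. In 9 cases over 6 genes another probe set passed where the chosen one did not. Besides those given above these were the difference of density responses of Slc43a2 (2.22 against 0.13) and 3 comparisons of the choline transporter-like Slc44a1. Another probe set of Slc44a1 gave 1.52 between the confluent lines, 1.10 with density in VEC-positive cells and 1.41 for the difference of responses, against 0.02, 0.95 and 0.72. At the signal threshold, Slc13a2 (200.4), Slc35g3 (201.3) and Slc66a1 (203.35) lay just inside by their highest condition mean, and Slc5a6 (190.8), Slc7a10 (198.35) and Slc2a6 (198.7) just outside. The 8 genes not tested, Slc13a2, Slc18b1, Slc25a35, Slc45a4, Slc46a3, Slc5a5, Slc66a1 and Slc7a4, were members that did not pass the filter on dim probe sets.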

How the data were processed

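The deposited tables hold a MAS5 signal, a linear intensity per probe set scaled by the authors to 500 on each array, as the labels state. MAS5 is named in the submitters' processing notes, without a version. Of 24833 probe sets other than controls, 21414 had 1 symbol in the platform annotation, 574 several and 2845 none, and 21367 matched RefSeq genes of GRCm38.p6 by Entrez identifier. Promoters and chromosomes come from the same RefSeq build.

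Signals were tested as log2(signal + 50) with limma 3.58.1 in R 4.3.3, for each chip over its 8 arrays, with moderated variances and a trend with signal (4 residual degrees of freedom, to which the prior added 5.66 for A and 5.6 for B). A probe set was kept if at least 1 group mean lay above the 50th percentile of its chip (a signal of 159 on A and 235 on B), which left 7006 and 7240, 14246 in all. The Benjamini-Hochberg method ran over all of these, and every adjusted p printed is from these fits. The scripts were tested on simulated data.

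Every gene that passed is named, and the 3 largest rises and falls of a comparison are given on every array. Members of the fixed lists are also named. The members and lists were chosen with earlier results of these data known. Alternatives were the offset, the filter, quantile normalisation, median centring, no variance trend, the copy number as a block, each copy left out, the cRNA samples as units, and the choice of probe set. The number of arrays limits the precision.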

Additional observations from a re-analysis of the deposited data

Results flagged for a closer look

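The density responses of the lines differed by the limma test of the difference itself for 20 genes. The values are the change in VEC-positive minus that in VEC-null cells on the log2 scale. Positive differences were given by Slc14a1 (2.76), Slc6a15 (2.43), Slc12a7 (1.96), Slc9a9 (1.82), Slc40a1 (1.60), Slc1a4 (1.54), Slc26a6 (1.53), Slc29a1 (1.38), Slc25a15 (1.36), Slc25a33 (1.31), Slc25a40 (1.16), Slc16a1 (1.13), Slc30a5 (1.07). Negative ones were given by Slc35b3 (-1.05), Slc36a1 (-1.07), Slc31a1 (-1.18), Slc25a20 (-1.46), Slc17a3 (-1.48), Slc27a1 (-1.49), Slc7a7 (-1.67). Of these, Slc6a15, Slc9a9, Slc26a6 and Slc16a1 were at 200 or more in 1 condition alone and had to differ. Slc14a1, Slc25a33, Slc7a7, Slc27a1 and Slc30a5 were bright in more conditions but not in all, so their tests too repeat in part what chose them. Single arrays decided 7 of the 20 calls. That of Slc25a33 (0.86 to 1.77) was lost without any array other than the first sparse VEC-positive and the second confluent VEC-null copy. That of Slc9a9 (1.59 to 2.05) was lost without the first sparse VEC-null, the second sparse VEC-positive or either confluent VEC-positive copy. That of Slc36a1 (-1.31 to -0.83) was lost without the first sparse or second confluent VEC-null or the second sparse or first confluent VEC-positive copy. Slc26a6 (1.36 to 1.70) lost its call without the second VEC-null copy of either density or the second confluent VEC-positive copy, and Slc35b3 (-1.24 to -0.86) without the second sparse or first confluent VEC-null or the second confluent VEC-positive copy. Slc25a40 (0.93 to 1.39) lost it without the second sparse VEC-null copy and Slc7a7 (-2.30 to -1.04) without the second confluent VEC-positive copy.

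Slc25a15 exchanges ornithine for citrulline. It changed by -0.99 with density in VEC-null and by 0.37 in VEC-positive cells. Slc25a20, the carrier of acylcarnitines, changed by 0.72 and -0.74. Slc25a40 changed by -0.62 and 0.54. Neither change of these 3 genes passed by itself.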

How the results depend on the processing

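A total of 106 pairs of a gene and a comparison passed, and 0 changed direction under any alternative run. With an offset of 200 in place of 50 the counts fell to 9 between the confluent and 8 between the sparse lines, and to 13 for the difference of density responses. With the filter at the 75th percentile 6 genes passed between the confluent lines. With the cRNA samples as units 4 genes passed between the lines, counted once for each density, and 15 with density, counted once for each line. Leaving out each copy in turn gave 10 to 18 and 12 to 17 genes between the lines when confluent and sparse, 23 to 27 and 28 to 32 with density in VEC-null and VEC-positive cells, and 18 to 23 for the difference of responses. Of the 106 pairs 71 passed without each of the 8 copies. A condition left with 1 copy was assumed to vary like the others. Copies with the same replicate number did not deviate together (correlations of -0.101 to 0.101), so the number does not pair them. With it as a block the counts were 14, 17, 24, 31 and 20 in the same order, and 1 of the 106 pairs was lost. Offset 10, no filter, quantile normalisation, median centring, no trend and the brightest probe set over both chips kept every count within 1.5 times. Median centring would move density changes on chip A by 0.15 and 0.19 and ended 9 of the 106 calls. Signals near background limit the dim genes, whose changes the offset of 50 understates.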
